A study of Mus musculus with 15 samples.

Results

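The D cyclins, the kinases of the G1 phase and the CDK inhibitors were described in adult neural stem cells (aNSCs) from which Trrap had been deleted. They are 10 genes of the 53801 in the count table. They were taken as a named list of genes, with no threshold on their values, and found by matching Ensembl gene IDs to mouse symbols. The list was chosen with earlier results of these data known. The 3 D cyclins are Ccnd1, Ccnd2 and Ccnd3. Their kinases are Cdk4 and Cdk6, and Cdk2 acts after them. Cdkn2a, Cdkn2b and Cdkn2c are INK4 inhibitors, and Cdkn1b is a CIP/KIP inhibitor. Cdkn2d, a further INK4 gene, is no member and is given with the other genes of the pathway. RNA-seq was carried out on 15 libraries, 5 in each of 3 groups. Untreated Trrap Fl/+ cultures and Trrap Fl/+ cultures given 4-hydroxytamoxifen (4-OHT) came from mice 19, 24, 26, 35 and 36. The third group was grown from mice 27, 28, 29, 37 and 39, which were Trrap Fl/Fl, and received 4-OHT. The mice were 2 months old, of a mixed C57BL6/J and 129sv background. All groups, the untreated one included, carried Rosa26-CreERT2, which is driven by a widely active promoter, so recombination is not restricted to 1 cell type. 4-OHT activates this Cre recombinase, and the labels give 5 days of treatment, while the study's methods describe a shorter exposure followed by fresh medium. Fl/+ cells given 4-OHT can lose their 1 floxed Trrap copy, so they are heterozygous controls and not wild type. An untreated Fl/Fl group was not analysed here.

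Cells pass from G1 into DNA synthesis through these proteins. Growth signals raise the D cyclins, which bind CDK4 or CDK6 and start the phosphorylation of the retinoblastoma protein. Cyclin E with CDK2 completes it and sets E2F factors free to switch on S phase genes. INK4 proteins bind CDK4 and CDK6 and keep D cyclins off them, while p27, the product of Cdkn1b, inhibits CDK2 and also rides on cyclin D complexes. In the adult subventricular zone, p27 and the INK4-ARF locus are known brakes on progenitor division, and Bmi1, which represses that locus, is known to be needed for stem cell renewal. TRRAP is an adaptor of several histone acetyltransferase complexes.

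Depth ranged from 25.7 M to 32.2 M counted reads per library, and each member had at least 58 counts in every library. Trrap itself measured 193, 214, 184, 179 and 181 CPM (a gene's count relative to the TMM-scaled library total) in untreated Fl/+ 19, 24, 26, 35 and 36. It measured 138, 204, 171, 165 and 142 CPM in the Fl/+ 4-OHT cultures of the same mice. It measured 92.9, 115, 142, 89.2 and 82.8 CPM in Fl/Fl 27, 28, 29, 37 and 39, so Fl/Fl 29 lay within the range of the Fl/+ 4-OHT cultures. The log2 fold change of Trrap between the 4-OHT groups was -0.64 (SE 0.16, edgeR adjusted p = 0.0115). Neural stem cell markers were present in every library, with a summed level of 5980 to 10495 CPM for the 10 listed genes. Of the 6 microglia markers, Aif1, Cx3cr1, Itgam and Ptprc had at most 3 counts in every library, and the list summed to at most 1.91 CPM. Endothelial markers summed to at most 8.53 CPM, with Cdh5 and Cldn5 at no more than 3 counts, and mural and fibroblast markers to at most 18.9 CPM, with Dcn and Lum at no more than 3. The 10 oligodendrocyte lineage markers summed to 3462 to 4511 CPM in untreated Fl/+, 3371 to 4659 CPM in Fl/+ 4-OHT and 3587 to 5403 CPM in Fl/Fl 4-OHT. The 6 astrocyte markers summed to 2678 to 3622, 3458 to 4652 and 2822 to 6332 CPM in the same order. The 8 neuron markers summed to 864 to 1137, 826 to 1009 and 563 to 815 CPM. Fl/Fl 37 stood apart, with Mbp, a myelin gene, at 1013 CPM against 81 to 154 CPM in the other Fl/Fl cultures. The library labelled female Fl/Fl 39 had 54 CPM of the Y-linked gene Ddx3y and 0.313 CPM of Xist, so its sex label was not borne out. The library labelled Fl/+ 4-OHT 36, male, had 74.7 CPM of Xist beside 52.9 CPM of Ddx3y. Untreated Fl/+ 36 had 5.89 CPM of Xist, against 0.289 and 0.154 CPM in untreated Fl/+ 19 and 35, also labelled male. Results that rest on these libraries are given with and without them where a call changed.

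Levels were first compared between the members per kilobase of annotated exon, since longer genes collect more reads. The length joins all annotated exons of a gene, whichever transcripts were expressed, so the order depends on it. In untreated Fl/+ cultures, Cdk4 (220 ± 23.6 CPM per kb, SD, n = 5) and Ccnd1 (217 ± 109) were the most abundant, and their ranges overlapped. Ccnd2 followed at 107 ± 58 CPM per kb and Cdkn2a at 71.8 ± 20.9 CPM per kb. Cdkn2b at 36 ± 11.6, Cdkn2c at 35 ± 7.46 and Cdkn1b at 32.3 ± 6.26 CPM per kb did not differ beyond their spread. Ccnd3 (11.4 ± 0.746 CPM per kb) and Cdk2 (8 ± 2.24 CPM per kb) were lower, and Cdk6 was lowest at 0.538 ± 0.31 CPM per kb. Without division by length, untreated Ccnd3 averaged 100 CPM, above Cdkn2a at 84.2, Cdkn2b at 50 and Cdkn2c at 94.1 CPM. Ccnd1 and Ccnd2 then averaged 1022 and 1004 CPM. The order per kb changed at the top with treatment and genotype. In Fl/+ 4-OHT cultures Ccnd1 was above all other members at 363 ± 57.7 CPM per kb, while Cdk4 at 187 ± 3.88 and Ccnd2 at 180 ± 27.8 CPM per kb overlapped. In Fl/Fl 4-OHT cultures Ccnd1 reached 532 ± 87.6 CPM per kb, followed by Ccnd2 at 172 ± 18.7 and Cdk4 at 111 ± 12.4 CPM per kb, with no overlap between these 3. From Cdkn2a downward the order was the same in the 3 groups. Cdkn2a and Cdkn2b overlapped in the 4-OHT groups, and Cdkn2c and Cdkn1b overlapped in every group. Cdk4 made up 99.4% to 99.9% of the summed Cdk4 and Cdk6 level in each of the 15 libraries.

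**Figure D1:**
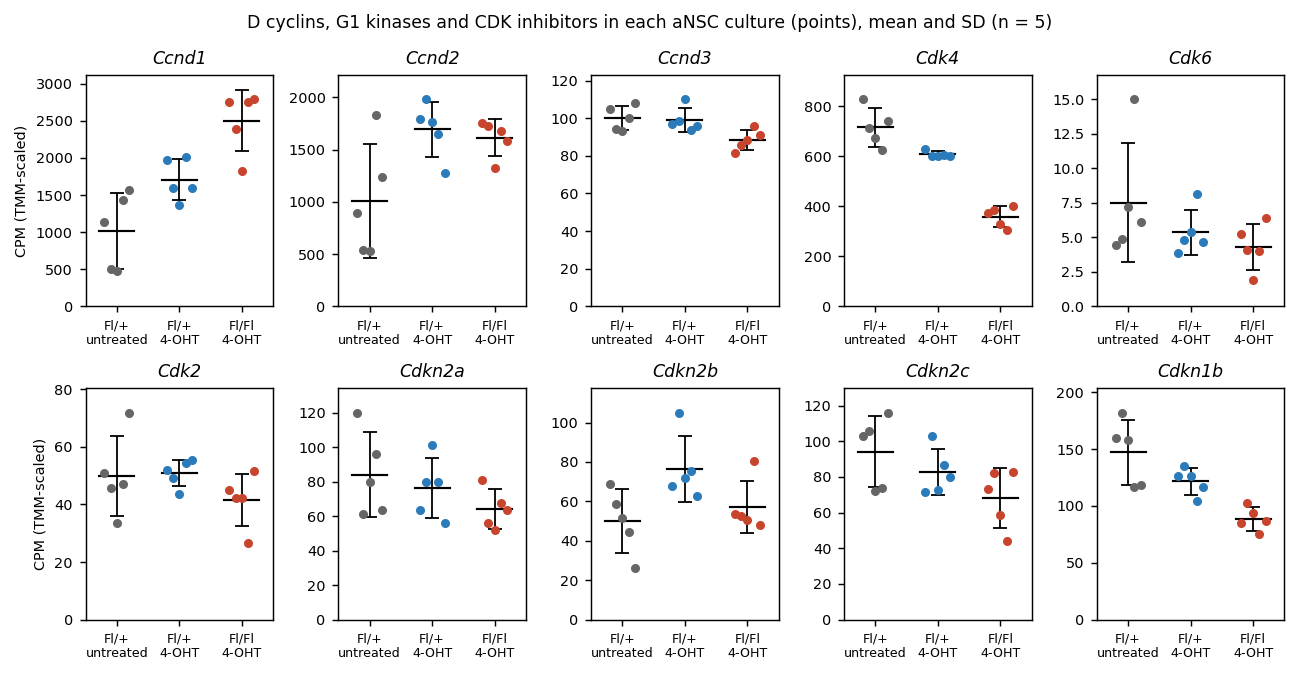
Level of each of the 10 members in CPM (vertical axes, from 0) for the 3 groups, with 1 point per culture, the mean as a line and the SD as a bar (n = 5). Cdk4 in the Fl/Fl cultures lies between 306 and 403 CPM, below every Fl/+ culture, and Ccnd1 in untreated Fl/+ cultures spans 477 to 1565 CPM.

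Trrap deletion was examined by comparing Fl/Fl with Fl/+ cultures that had both received 4-OHT. In this comparison 3 of the 10 members passed the test. Cdk4 and Cdkn1b were lower and Ccnd1 was higher in the Fl/Fl cultures (edgeR quasi-likelihood test, adjusted p under 0.05). All 10 members passed the filter on low counts. Of all 15036 genes tested, 31.7% were called, so the members were called about as often as genes at large. Calls upward were 16.8% and calls downward 15.0% of all genes. The fold changes of 9 members were negative, with a median log2 fold change of -0.27 over the 10 against 0.02 over all genes. The groups did not overlap for 2 members, Cdk4 and Cdkn1b, and for 22.6% of all genes. In these bulk cultures, fewer cells of a type and less RNA per cell cannot be told apart.

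Cdk4, a partner kinase of the D cyclins (chr10:127063534-127067920, plus strand, GRCm38), measured 631, 603, 602, 604 and 601 CPM in Fl/+ 4-OHT 19, 24, 26, 35 and 36. It measured 372, 386, 330, 306 and 403 CPM in Fl/Fl 27, 28, 29, 37 and 39. Every Fl/Fl culture was lower than every Fl/+ culture, and the lowest was Fl/Fl 37. The log2 fold change was -0.74 (SE 0.083, edgeR adjusted p = 0.00018), so its level fell by 40.3%. The exact two-sided permutation test gave p = 0.00794, the smallest that 5 against 5 allow. The log2 difference was -0.76 within mice 19 to 29 and -0.78 within mice 35 to 39, a split by mouse number alone. The call held in all 19 alternatives, with log2 fold changes from -0.80 to -0.71. A stretch of 641 bases, 19.7% of its exon length, is shared with Tspan31 on the opposite strand, which the stranded counting keeps apart.

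Cdk6 (chr5:3341485-3531008, plus strand) is the other kinase for D cyclins. It measured 3.89, 4.81, 5.37, 8.15 and 4.65 CPM in the Fl/+ 4-OHT cultures and 5.25, 4.08, 1.9, 4.02 and 6.39 CPM in the Fl/Fl cultures. The groups overlapped, with a log2 fold change of -0.30 (SE 0.298, edgeR adjusted p = 0.474). Cdk2 (chr10:128697939-128705031, minus strand) is the kinase that works with cyclins E and A. It measured 51.8, 49.3, 43.7, 54.3 and 55.3 CPM in Fl/+ 4-OHT and 45.1, 42.1, 42.2, 26.6 and 51.5 CPM in Fl/Fl cultures. Its log2 fold change of -0.28 (SE 0.148) did not pass the test (edgeR adjusted p = 0.176), and Fl/Fl 37 was again the lowest. The 3 kinases thus differed in their calls, and the difference between them was not tested.

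Ccnd1 (chr7:144929931-144939925, minus strand), the D cyclin most closely tied to growth factor signals, measured 1969, 1600, 1372, 2007 and 1594 CPM in Fl/+ 4-OHT 19, 24, 26, 35 and 36. It measured 2759, 2394, 1824, 2749 and 2790 CPM in Fl/Fl 27, 28, 29, 37 and 39. The Fl/Fl cultures were higher except for Fl/Fl 29, which fell within the Fl/+ range. The log2 fold change was 0.57 (SE 0.142, edgeR adjusted p = 0.0117; exact permutation p = 0.0238), a level 1.48-fold higher. A stretch of 1100 bases, 23.4% of its exon length, is shared with LTO1 on the opposite strand, and the counting was stranded. The call was lost when the dispersion was estimated from all 15 libraries (adjusted p = 0.169) and when Fl/Fl 37 and 39 were both left out (adjusted p = 0.0719, log2 fold change 0.45). Trrap itself missed the threshold in that second setting (adjusted p = 0.0572).

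Ccnd2 (chr6:127125162-127152193, minus strand) is a D cyclin typical of neural progenitors. It measured 1797, 1981, 1766, 1648 and 1278 CPM in Fl/+ 4-OHT and 1759, 1725, 1323, 1681 and 1587 CPM in Fl/Fl cultures. These ranges overlapped, with a log2 fold change of -0.06 (SE 0.125, edgeR adjusted p = 0.766). Ccnd3 (chr17:47505051-47599691, plus strand), the least abundant D cyclin in these cells, measured 97, 98.3, 110, 93.9 and 96 CPM in Fl/+ 4-OHT and 81.5, 85.7, 88.5, 95.7 and 91.1 CPM in Fl/Fl cultures. Its log2 fold change was -0.15 (SE 0.0662, edgeR adjusted p = 0.11). The unadjusted exact permutation p was 0.0159, with Fl/Fl 37 inside the Fl/+ range.

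In the make-up of the D cyclin pool per kb, the Fl/+ groups overlapped each other and the Fl/Fl cultures had larger Ccnd1 shares, without a test. Ccnd1 made up 59.7% to 69.8% of the pool in untreated Fl/+, 59.3% to 69.8% in Fl/+ 4-OHT and 72% to 76.8% in Fl/Fl 4-OHT cultures. The ratio of Ccnd1 to Ccnd2 per kb was 1.55 to 2.49 in Fl/+ 4-OHT and 2.76 to 3.51 in Fl/Fl cultures. Summed per kb, the D cyclins stood to Cdk4 at a ratio of 0.794 to 2.65 in untreated Fl/+, 2.62 to 3.29 in Fl/+ 4-OHT and 5.3 to 8.21 in Fl/Fl 4-OHT cultures. The Fl/Fl range did not meet the others, and untreated Fl/+ 24 and 26 had the lowest ratios. These shares and ratios rest on the same counts as the fold changes and on the annotated exon lengths, and were not tested.

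**Figure D2:**
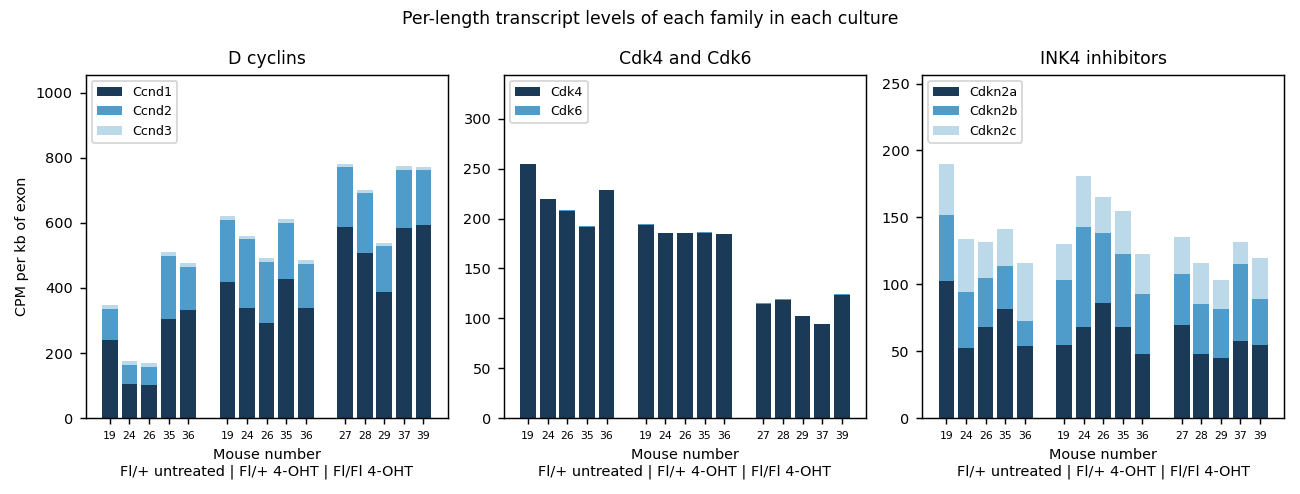
Levels per kb of exon in each culture (bars, 1 per mouse number) for the D cyclins, the kinases Cdk4 and Cdk6, and the INK4 inhibitors, stacked by gene. The D cyclin sums are 485 to 620 CPM per kb in Fl/+ 4-OHT and 538 to 782 in Fl/Fl 4-OHT cultures, and the Cdk4 and Cdk6 sums 185 to 194 and 94.5 to 124.

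Cdkn1b (chr6:134920401-134925513, plus strand), which encodes p27, measured 126, 135, 126, 104 and 117 CPM in Fl/+ 4-OHT 19, 24, 26, 35 and 36. It measured 85.3, 103, 93.8, 75.1 and 86.6 CPM in Fl/Fl 27, 28, 29, 37 and 39. The groups did not overlap, although Fl/Fl 28 and Fl/+ 35 were close. The log2 fold change was -0.44 (SE 0.0978, edgeR adjusted p = 0.00649; exact permutation p = 0.00794), so its level fell by 26.1%. The call held in all 19 alternatives. The log2 difference was -0.46 within mice 19 to 29 and -0.45 within mice 35 to 39.

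Of the 3 INK4 members 0 passed by edgeR or by DESeq2, and Cdkn2b alone had an unadjusted edgeR p under 0.05. Cdkn2b (chr4:89306299-89311039, minus strand), which encodes p15, measured 67.6, 105, 72.1, 75.5 and 62.5 CPM in Fl/+ 4-OHT and 53.4, 52.8, 50.7, 80.5 and 48.2 CPM in Fl/Fl cultures. Fl/Fl 37 was the only Fl/Fl culture above the lowest Fl/+ culture. The log2 fold change was -0.41 (SE 0.167, edgeR adjusted p = 0.0821). Without Fl/Fl 37 it was -0.58 and passed (adjusted p = 0.0111), as it did without Fl/Fl 37 and 39 together (-0.54, adjusted p = 0.0325). Cdkn2a (chr4:89274471-89294653, minus strand) produces p16Ink4a and p19Arf from separate start sites, and its counts join both. It measured 63.5, 79.7, 101, 80.1 and 56.3 CPM in Fl/+ 4-OHT and 81.1, 56.1, 52, 67.8 and 63.8 CPM in Fl/Fl cultures, with a log2 fold change of -0.23 (SE 0.163, edgeR adjusted p = 0.303). Cdkn2c (chr4:109660876-109667189, minus strand), which encodes p18, measured 71.7, 103, 72.4, 86.5 and 80.2 CPM in Fl/+ 4-OHT and 73.5, 82.1, 58.4, 44.2 and 82.6 CPM in Fl/Fl cultures. Its log2 fold change was -0.26 (SE 0.169, edgeR adjusted p = 0.256), and Fl/Fl 37 was the lowest. Per kb, Cdkn2a made up 39% to 58% of the summed level of these 3 INK4 members, Cdkn2d not included, in untreated Fl/+, 37.5% to 52.2% in Fl/+ 4-OHT and 41.1% to 51.3% in Fl/Fl 4-OHT cultures. The ratio of Cdk4 to that sum was 1.34 to 1.96, 1.02 to 1.51 and 0.713 to 1.04 in the same order, so the 2 Fl/+ groups overlapped and so did the 2 4-OHT groups.

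**Figure D3:**
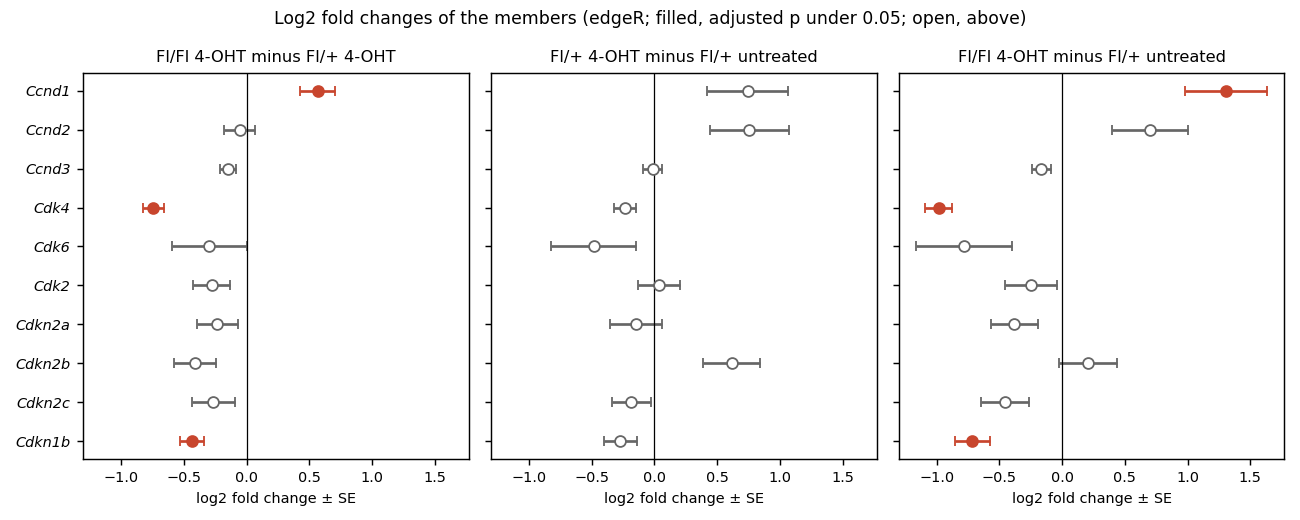
Log2 fold change with its SE (horizontal axis) of each member in the 3 comparisons, filled where the edgeR adjusted p was under 0.05. Ccnd1, Cdk4 and Cdkn1b are filled in the comparisons that involve Fl/Fl cultures, and no member is filled for 4-OHT in Fl/+ cultures. The fits shown are unpaired, and with the replicate block Ccnd1, Cdkn2b and Cdkn1b passed for 4-OHT.

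The 2 members that fell are shown with the bases before their RefSeq start sites (GRCm38.p6), and Cdkn2a with those before both of its start sites, because its count joins transcripts from both. RefSeq start regions were at hand for 8 members, in 11 windows, and not for Ccnd1 and Ccnd2. Each sequence is the 250 bases before the start, 5′ to 3′ on the strand of the gene. Capitals mark the GC box letters GGGCGG or CCGCCC, the E-box letters CACGTG, which read the same on both strands, and the E2F letters TTTGGCGC or TTTCCCGC with their reverse complements GCGCCAAA and GCGGGAAA. No motif overlaps another in these 4 windows. Cdk4 is at chr10:127063285-127063534 (plus), Cdkn1b at chr6:134920151-134920400 (plus), the p19Arf start of Cdkn2a at chr4:89294620-89294869 (minus) and its p16Ink4a start at chr4:89282193-89282442 (minus).
Cdk4: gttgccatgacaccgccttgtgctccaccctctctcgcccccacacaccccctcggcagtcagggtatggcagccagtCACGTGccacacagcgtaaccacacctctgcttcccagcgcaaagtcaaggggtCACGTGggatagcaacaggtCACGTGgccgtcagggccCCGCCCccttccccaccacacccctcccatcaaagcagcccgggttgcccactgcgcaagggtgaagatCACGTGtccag
Cdkn1b: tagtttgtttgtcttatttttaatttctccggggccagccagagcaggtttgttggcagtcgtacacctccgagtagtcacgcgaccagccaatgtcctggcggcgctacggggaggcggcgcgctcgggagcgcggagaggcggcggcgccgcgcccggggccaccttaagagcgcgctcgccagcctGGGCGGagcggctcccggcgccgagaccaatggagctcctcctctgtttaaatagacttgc
Cdkn2a, p19Arf start: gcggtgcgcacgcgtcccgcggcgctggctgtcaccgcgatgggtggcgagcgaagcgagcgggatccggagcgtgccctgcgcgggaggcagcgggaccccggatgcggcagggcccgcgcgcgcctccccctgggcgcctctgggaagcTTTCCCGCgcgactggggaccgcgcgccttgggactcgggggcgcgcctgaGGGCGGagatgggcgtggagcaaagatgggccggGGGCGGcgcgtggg
Cdkn2a, p16Ink4a start: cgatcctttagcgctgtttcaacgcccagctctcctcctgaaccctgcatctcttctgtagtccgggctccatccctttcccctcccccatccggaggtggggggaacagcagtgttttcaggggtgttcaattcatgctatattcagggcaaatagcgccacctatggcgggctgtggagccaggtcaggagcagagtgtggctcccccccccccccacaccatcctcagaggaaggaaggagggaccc
The Cdk4 window held 4 E-boxes and 1 GC box. Of the 32851 mouse windows of this length, 6.02% held an E-box and 7 windows, or 0.0213%, held at least 4. The Cdkn1b window held 1 GC box, which 32.7% of all windows held at least once. The p19Arf window held 2 GC boxes and 1 E2F site, found in 1.3% of all windows, and the p16Ink4a window held none of these letters. These matches describe the windows and are not measured binding sites.

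Of 30 other genes of the pathway, 13 were lower with Trrap deletion, 2 were higher and 15 did not pass the test (edgeR). This list too was chosen with earlier results of these data known. Over all genes 15.0% were lower and 16.8% higher. The list had a median log2 fold change of -0.37 against 0.02 over all genes. Without Fl/Fl 37 and 39, 12 were lower and 2 higher, beside 12.1% and 11.5% of all genes. Among E2F and DP factors, 4 of 10 were lower and 1 was higher. E2f7, a repressor of E2F targets, ranged from 14.9 to 20.6 CPM in Fl/+ 4-OHT and from 3.36 to 6.25 CPM in Fl/Fl cultures (log2 fold change -1.92, SE 0.196, edgeR adjusted p = 0.000117). E2f2, an activator, ranged from 18.8 to 24.9 and from 8.16 to 15.7 CPM (-0.88, SE 0.175, adjusted p = 0.00376). E2f8, a partner of E2f7, had a log2 fold change of -0.66 (edgeR adjusted p = 0.0441). That call was lost without any 1 of Fl/+ 19, 24, 35 and 36 and Fl/Fl 28 and 29 (edgeR adjusted p from 0.0629 to 0.0836). It was also lost with library size alone, sex as a covariate and the dispersion from all 15 libraries (0.0531 to 0.111).

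Among the cyclins E and A and the CDK activators, 2 of 7 were lower and 1 was higher. Ccna2, the S phase cyclin that binds Cdk2, ranged from 142 to 221 CPM in Fl/+ 4-OHT and from 42.8 to 112 CPM in Fl/Fl cultures (log2 fold change -1.25, SE 0.23, edgeR adjusted p = 0.0025). Cdc25a, a phosphatase that activates Cdk2, ranged from 31.6 to 34.2 and from 14.7 to 23.2 CPM (-0.71, SE 0.118, adjusted p = 0.00137). Ccnh, a subunit of the kinase that activates other CDKs, was higher, at 46.9 to 56.7 and 59 to 69.6 CPM (0.32, SE 0.0692, adjusted p = 0.00571). Both genes of p27 turnover, Skp2 and Cks1b, which take part in its degradation, were lower, with log2 fold changes of -0.46 (edgeR adjusted p = 0.0462) and -0.53 (adjusted p = 0.0173). The Skp2 call was lost without any 1 of Fl/+ 19, 24, 35 and 36 and Fl/Fl 27 and 29 (edgeR adjusted p from 0.0577 to 0.085), and with library size alone, no low-count filter and the dispersion from all 15 libraries (0.0512 to 0.0728). The mRNA of Cdkn1b, whose protein p27 they act on, was lower in the same cultures, and the protein was not measured.

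Of the other CDK inhibitors, 2 of 3 were lower. Cdkn2d, the INK4 gene outside the members, ranged from 31.4 to 39.1 CPM in Fl/+ 4-OHT and from 19.9 to 25.8 CPM in Fl/Fl cultures, without overlap (log2 fold change -0.56, SE 0.094, edgeR adjusted p = 0.00151). Cdkn1c, which encodes p57, had a log2 fold change of -0.99 (SE 0.311, adjusted p = 0.0312), a call lost without any 1 of Fl/+ 26 and 36 and Fl/Fl 27, 37 and 39 (edgeR adjusted p from 0.0505 to 0.0702) and without Fl/Fl 37 and 39 together (0.125). The regulators of the INK4-ARF locus and effectors of ARF gave 3 lower genes of 5. Bmi1 and Ezh2, Polycomb genes that repress the locus, had log2 fold changes of -0.55 (SE 0.0854, edgeR adjusted p = 0.000923) and -0.81 (SE 0.157, adjusted p = 0.0033). Trp53, which acts after ARF, ranged from 96.1 to 117 CPM and from 57.3 to 64.6 CPM (-0.79, SE 0.0672, adjusted p = 5.23e-05). Of the 3 pocket protein genes, the targets of these kinases, 0 passed by edgeR or by DESeq2, and 0 had an unadjusted p under 0.05.

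Genes of S phase and mitosis, likewise chosen with earlier results of these data known, were also read. Of 17 S phase and mitosis genes 6 passed the test, all lower, beside 15.0% of all genes lower and 31.7% called in either direction. They were 1 of 11 S phase genes and 5 of 6 mitosis genes. The other 11 also had negative fold changes but did not pass. Rrm2, a subunit of ribonucleotide reductase, ranged from 95.1 to 173 CPM in Fl/+ 4-OHT and from 37.7 to 71.2 CPM in Fl/Fl cultures (log2 fold change -1.42, SE 0.215, edgeR adjusted p = 0.00086). Mki67, a marker of dividing cells, ranged from 262 to 537 and from 97.1 to 208 CPM (-1.35, SE 0.248, adjusted p = 0.00243). Top2a, a topoisomerase, ranged from 321 to 562 and from 146 to 326 CPM (edgeR adjusted p = 0.00611), and Plk1, a mitotic kinase, had a log2 fold change of -0.97 (adjusted p = 0.00714). Without Fl/Fl 37 and 39, 9 of the 17 genes passed, all lower, 4 of them S phase genes, beside 12.1% of all genes lower and 23.6% called in either direction. In these libraries 3 of 10 neural stem cell markers and 2 of 8 neuron markers were lower, 1 neuron marker was higher, and 0 of the 6 astrocyte and 0 of the 10 oligodendrocyte lineage markers passed (edgeR). Unadjusted p-values were under 0.05 for 0 astrocyte and 2 oligodendrocyte lineage markers, and DESeq2 called 0 and 1. The part of cell composition in the members' values was not tested.

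**Figure D4:**
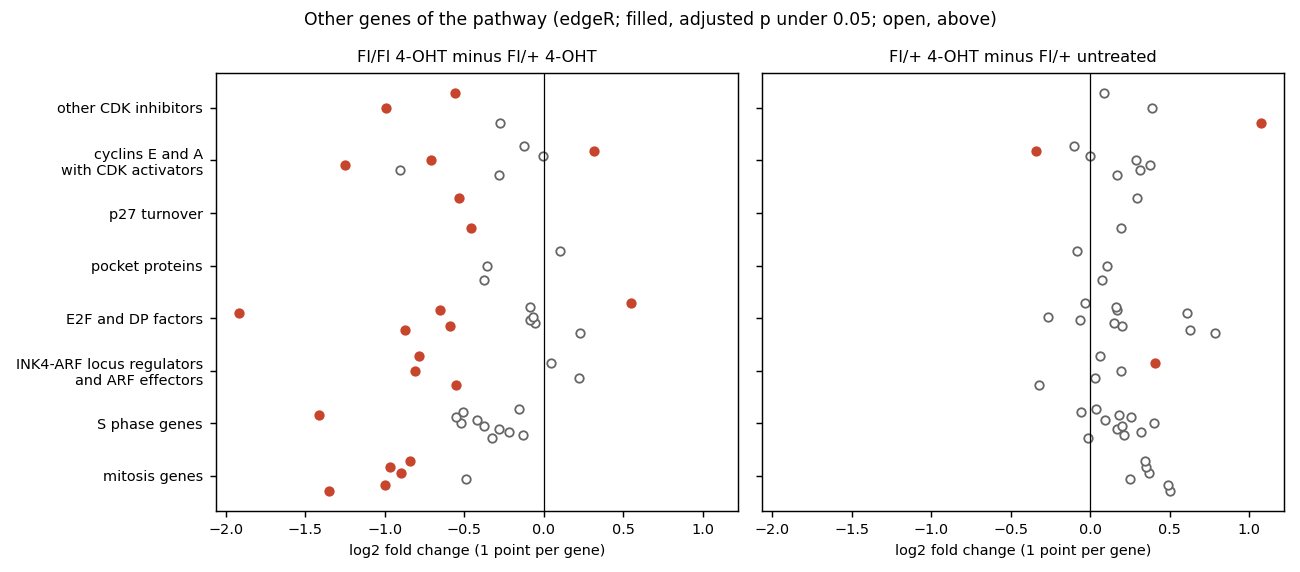
Log2 fold change (horizontal axis) of the other pathway genes and of the S phase and mitosis genes, 1 point per gene, filled where the edgeR adjusted p was under 0.05. With Trrap deletion 13 pathway genes are lower and 2 higher. With 4-OHT in Fl/+ cultures, in the unpaired fit shown, 2 are higher and 1 lower.

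Fl/+ cultures with and without 4-OHT were compared in the same 5 mice. This contrast holds both the exposure to 4-OHT and any loss of the 1 floxed Trrap copy, which cannot be told apart here. Trrap was lower with 4-OHT in all 5 mice, with a log2 fold change of -0.21 (SE 0.11) that did not pass (edgeR adjusted p = 0.234, and 0.0838 with the replicate block). Without the pairing, 0 of the 10 members passed (edgeR), while 13.8% of the 14821 genes tested did. Unadjusted edgeR p-values were under 0.05 for 4 members, a count given without the share over all genes. Exact permutation p-values were under 0.05 for 3 members, beside 27.7% of all genes tested. DESeq2 called 1 member, Cdk4 (adjusted p = 0.0438), against 16.6% of its genes. With mouse number as a replicate block, 3 members passed, against 25.7% of all genes. Ccnd1 and Cdkn2b were higher and Cdkn1b was lower with 4-OHT in that fit. No member had groups without overlap, against 12.0% of all genes. Scaled by library size alone, 66.2% of the calls over all genes were higher, against 53.2% with TMM. In the same comparison 6 of 10 oligodendrocyte lineage markers were higher, 1 of 6 astrocyte markers was higher and 2 were lower, 1 of 10 neural stem cell markers was higher and 2 were lower, and 1 of 8 neuron markers was lower (edgeR). The part of these cells in the members' values was not tested.

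Ccnd1 measured 1132, 499, 477, 1434 and 1565 CPM in untreated Fl/+ 19, 24, 26, 35 and 36, and 1969, 1600, 1372, 2007 and 1594 CPM with 4-OHT. All 5 mice were higher with 4-OHT, with log2 changes of 0.80, 1.68, 1.52, 0.49 and 0.03. The paired log2 fold change was 0.91 (edgeR with the replicate block, SE 0.232, adjusted p = 0.0236), and the unpaired one 0.74 (SE 0.321, adjusted p = 0.148). The exact sign-flip test over the 5 mice gave p = 0.0625, the smallest that its 32 arrangements allow. Mice 24 and 26, both labelled female, had the lowest untreated levels and the largest changes. The mean log2 change was 1.33 in mice 19 to 26 and 0.26 in mice 35 and 36. The interaction with labelled sex was -1.18 (male minus female) and did not pass (edgeR adjusted p = 0.254).

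Ccnd2 measured 889, 539, 527, 1827 and 1239 CPM in the untreated cultures and 1797, 1981, 1766, 1648 and 1278 CPM with 4-OHT. Mice 19, 24 and 26 were higher by log2 changes of 1.01, 1.88 and 1.74, while mice 35 and 36 had changes of -0.15 and 0.04. The untreated group was therefore more spread than the treated one. The paired log2 fold change of 0.91 (SE 0.308) did not pass (edgeR with the replicate block, adjusted p = 0.0603), nor did the unpaired one of 0.76 (adjusted p = 0.135). Without untreated Fl/+ 35 the unpaired value was 1.09 and passed (adjusted p = 0.0243). Ccnd3 measured 105, 94.3, 93.1, 99.9 and 108 CPM untreated, against 93.9 to 110 CPM with 4-OHT (log2 fold change -0.01, SE 0.0732, edgeR adjusted p = 0.929). Its sign was positive with scaling by library size alone.

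Cdkn2b measured 68.9, 58.9, 51.6, 44.4 and 26 CPM untreated and 67.6, 105, 72.1, 75.5 and 62.5 CPM with 4-OHT. It was higher in 4 of 5 mice, and mouse 19 had a log2 change of -0.03. The paired log2 fold change was 0.66 (edgeR with the replicate block, SE 0.16, adjusted p = 0.0188), and the unpaired one 0.62 (adjusted p = 0.0985; exact sign-flip p = 0.125). Its neighbour on chromosome 4, Cdkn2a, measured 120, 61.4, 79.7, 96 and 63.7 CPM untreated and 63.5, 79.7, 101, 80.1 and 56.3 CPM with 4-OHT. Its log2 fold change was -0.15 (SE 0.205, edgeR adjusted p = 0.679), with 2 of 5 mice higher. Cdkn2c measured 103, 106, 72.1, 73.6 and 116 CPM untreated, against 71.7 to 103 CPM with 4-OHT, a log2 fold change of -0.18 (SE 0.154, edgeR adjusted p = 0.463).

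Cdkn1b measured 160, 182, 158, 117 and 118 CPM untreated and 126, 135, 126, 104 and 117 CPM with 4-OHT. It was lower in all 5 mice, with a paired log2 fold change of -0.26 (edgeR with the replicate block, SE 0.0793, adjusted p = 0.0449) and an unpaired one of -0.27 (adjusted p = 0.193). Cdk4 measured 828, 712, 673, 624 and 742 CPM untreated and 601 to 631 CPM with 4-OHT. It too was lower in all 5 mice, by log2 changes between -0.39 and -0.05. Its paired log2 fold change of -0.23 (SE 0.0816) had an adjusted p of 0.0729 (edgeR with the replicate block), and its unpaired one an adjusted p of 0.102. Cdk6 measured 4.45, 4.85, 7.21, 15 and 6.08 CPM untreated and was lower in all 5 mice (unpaired log2 fold change -0.48, SE 0.34, edgeR adjusted p = 0.376). Without untreated Fl/+ 35 that value was -0.07, and without Fl/+ 4-OHT 35 it was -0.67. Cdk2 measured 51, 45.5, 33.5, 47 and 71.8 CPM untreated, with a log2 fold change of 0.03 (SE 0.168, edgeR adjusted p = 0.919).

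**Figure D5:**
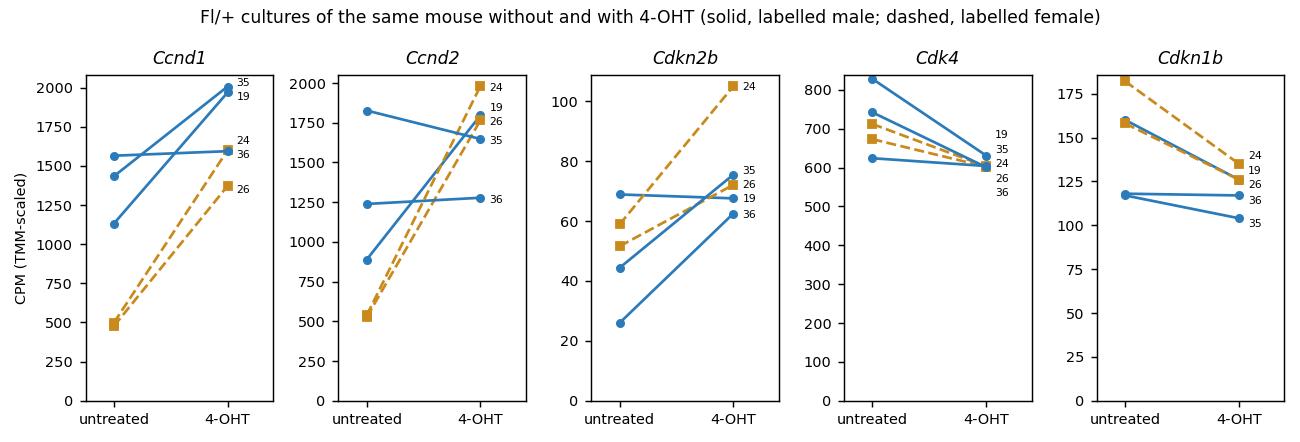
CPM (vertical axes, from 0) of 5 members in Fl/+ cultures without and with 4-OHT, with a line joining the cultures of 1 mouse and the mouse number at its end. Ccnd1 is higher and Cdk4 and Cdkn1b are lower with 4-OHT in all 5 mice, and the Ccnd2 lines of mice 24 and 26 start at 539 and 527 CPM.

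Of the 30 other pathway genes, 2 were higher and 1 was lower with 4-OHT, beside 7.34% and 6.45% of all genes. With the replicate block 6 were higher and 1 was lower, beside 13.8% and 11.9%. Cdkn1a, which encodes the p53 target p21, ranged from 173 to 265 CPM untreated and from 371 to 573 CPM with 4-OHT (log2 fold change 1.07, SE 0.167, edgeR adjusted p = 0.00246). Mdm2, a p53 target that restrains p53, ranged from 55.7 to 68.4 and from 78.2 to 84.3 CPM (0.41, SE 0.0747, adjusted p = 0.00543). Ccnh was lower, at 58.9 to 79.2 and 46.9 to 56.7 CPM (-0.35, SE 0.0992, adjusted p = 0.0408). That call was lost when any 1 library other than untreated Fl/+ 24 and 26 was left out (edgeR adjusted p from 0.0607 to 0.107), and with library size alone and no low-count filter (0.0773 to 0.0781). Of the 17 S phase and mitosis genes 0 passed by edgeR or DESeq2, and 0 had an unadjusted p under 0.05. With the replicate block, 3 were higher.

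Fl/Fl 4-OHT cultures were last set against untreated Fl/+ cultures, a contrast that holds both the deletion and the 4-OHT and shares libraries with the other comparisons. Here 3 of 10 members passed, again Ccnd1, Cdk4 and Cdkn1b, against 30.7% of 15032 genes. Calls upward were 15.7% and calls downward 15.1% of all genes, and 66.3% in place of 51% of the calls were higher with scaling by library size alone. The groups did not overlap for these 3 members and for 23.1% of all genes. Ccnd1 was higher by a log2 fold change of 1.31 (SE 0.325, edgeR adjusted p = 0.011; exact permutation p = 0.00794). Its log2 difference was 1.83 within mice 19 to 29 and 0.89 within mice 35 to 39. Ccnd1 missed the threshold without Fl/Fl 37 and 39 (edgeR adjusted p = 0.0621, log2 fold change 1.18). Cdk4 was lower by a log2 fold change of -0.98 (SE 0.106, edgeR adjusted p = 0.000143), so its level fell by 49.4%. Cdkn1b was lower by -0.71 (SE 0.137, edgeR adjusted p = 0.00295), so its level fell by 39.1%. Ccnd2 had a log2 fold change of 0.70 (SE 0.304, edgeR adjusted p = 0.103), and Cdkn2b one of 0.21 (adjusted p = 0.536). Ccnd2 passed in 3 of 19 alternatives, which were without untreated Fl/+ 35 (edgeR adjusted p = 0.0111, log2 fold change 1.02), with sex as a covariate (0.0422, 0.82) and with mouse series as a covariate (0.0253, 0.83). In the same contrast 6 of 8 neuron markers were lower and 1 was higher, 6 of 10 oligodendrocyte lineage markers were higher and 1 was lower, 4 of 10 neural stem cell markers were lower, and of 6 astrocyte markers 1 was higher and 2 were lower (edgeR). The part of these cells in the members' values was not tested. Set against both Fl/+ groups, the Cdk4 and Cdkn1b levels of all 5 Fl/Fl cultures lay below every Fl/+ culture.

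The other pathway genes gave 4 higher and 7 lower calls of 30 in this contrast, beside 15.7% and 15.1% of all genes. Without Fl/Fl 37 and 39 there were 2 higher and 4 lower, beside 10.3% and 10.2% of all genes and 20.5% in either direction. Cdkn1a was higher (log2 fold change 0.79, SE 0.128, edgeR adjusted p = 0.00119) and Cdkn2d lower (-0.48, SE 0.131, adjusted p = 0.018). Trp53, Bmi1 and Ezh2 were lower (-0.73, -0.88 and -0.62, edgeR adjusted p = 0.000137, 0.000237 and 0.0175). Cdc25a was lower (-0.43, edgeR adjusted p = 0.0429), a call lost without any 1 of Fl/Fl 28, 29 and 37 and untreated Fl/+ 19, 24, 35 and 36 (0.0648 to 0.0923) and in 3 further settings (0.0778 to 0.111). Of the 10 E2F and DP factors 2 were lower and 2 higher, and 0 passed without Fl/Fl 37 and 39. E2f7 was lower (-1.31, SE 0.377, edgeR adjusted p = 0.0219), a call also lost without Fl/Fl 29 or 37 alone (0.0501 to 0.0538). Tfdp2, a DP partner of the E2Fs, was higher (0.51, SE 0.159, edgeR adjusted p = 0.0316), a call also lost without any 1 of Fl/Fl 27 and 39 and untreated Fl/+ 19, 24 and 26 (0.0708 to 0.0748). E2f1, an activator, was higher (1.01, SE 0.294, edgeR adjusted p = 0.0236), a call lost without any 1 of Fl/Fl 28 and 39 and untreated Fl/+ 24 (edgeR adjusted p from 0.0519 to 0.0555) or without Fl/Fl 37 and 39 together (0.0568). Of the 17 S phase and mitosis genes, 2 were lower, Rrm2 and Mki67, and 0 passed without Fl/Fl 37 and 39. The Rrm2 call (log2 fold change -1.24, edgeR adjusted p = 0.0272) was also lost without any 1 of Fl/Fl 28, 29 and 37 (0.0605 to 0.0649). The Mki67 call (-0.86, edgeR adjusted p = 0.0494) was lost without any 1 library other than untreated Fl/+ 26 (0.0546 to 0.11), and in 5 further settings, which included library size alone and both covariates (0.052 to 0.126).

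The genes whose profile over the 15 libraries lay closest to that of each called member were found by the root mean square difference of centred log2(CPM + 0.5), among 12399 protein-coding genes that averaged 1 CPM or more. For Cdk4 they were Apex1, a DNA repair endonuclease (difference 0.0972), and Sept6, a septin (0.102), where Cdk4 itself varied by 0.441 about its mean. Apex1 averaged 120, 97.9 and 54.4 CPM in untreated Fl/+, Fl/+ 4-OHT and Fl/Fl 4-OHT cultures. For Cdkn1b they were H2afv, a histone H2A variant (0.119), and Zscan21, a zinc finger gene (0.122), against its own 0.348. For Ccnd1 they were Lrrk1, a kinase gene (0.257), and Igfbp3, an insulin-like growth factor binding protein (0.277), against its own 0.758. Igfbp3 averaged 613, 808 and 1330 CPM in the 3 groups. These values are descriptions, since the 15 libraries share groups and mice.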

How the data were processed

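Stranded poly(A) libraries of 15 aNSC cultures were sequenced. Per the study's methods and processing notes, the authors mapped the single-end reads to GRCm38 with STAR 2.5.4b and counted uniquely mapped reads per gene of Ensembl 92 with featureCounts 1.5.0 with strand taken into account. What was deposited is the unnormalized count of each gene in each library. Reads that map to several places are missing from them, and PCR copies are counted. Groups, mouse numbers and sexes came from the labels. The mouse series are ranges of these numbers, 19 to 29 and 35 to 39, and were not taken from the labels as a batch. The labels and the study's methods differ on the 4-OHT dose and schedule, so no dose is given. Gene IDs were matched to GENCODE M21 (53706 of 53801). The table held 15 columns, all used.

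Each comparison was fitted on its own 10 libraries with edgeR 4.0.16 in R 4.3.3 (filterByExpr with a minimum count of 10, TMM, quasi-likelihood test without covariates, Benjamini-Hochberg adjustment over all genes tested, threshold 0.05). Single members were also tested by exact two-sided permutation of mean log2(CPM + 0.5), with sign flips over mice for 4-OHT; these p-values are unadjusted. Each culture of a group came from a different mouse, by the mouse numbers of the labels. No 2 libraries of a group agreed within counting noise (lowest chi-square per degree of freedom 21.5 over 30 pairs). The Fl/+ groups share mice by the labels. Deviations from group means over 15435 genes correlated between cultures of 1 mouse with r from 0.204 to 0.586, and between different mice with r from -0.489 to 0.317. The scripts' test was checked on simulated counts.

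All 10 members were named. From the lists of other pathway, S phase and mitosis genes, at most 3 called genes of the largest fold change were named per list and comparison, with 2 nearest profiles per called member. The members and lists were chosen with earlier results of these data known. Alternatives were DESeq2 1.42.0, its size factors in edgeR, library size alone, no filter, 10 counts in every library, a dispersion from all 15 libraries, sex or mouse series as covariate, each library left out, the replicate block, and pseudocounts of 0.1 and 1. Leaving out Fl/Fl 37 and 39 together was added after seeing the data. Promoter sequences were RefSeq's.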

Additional observations from a re-analysis of the deposited data

Results flagged for a closer look

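In groups of 5, the highest or lowest culture stood far from the other 4 for 4 values of the members, among 33 groups examined, Trrap included. Chance gives about 1 in 20. Cdk6 in untreated Fl/+ 35 was 15 CPM, against 4.45 to 7.21 CPM in the other 4. Cdkn2b in Fl/Fl 37 was 80.5 CPM, against 48.2 to 53.4 CPM. Ccnd3 in Fl/+ 4-OHT 26 was 110 CPM, against 93.9 to 98.3 CPM, and Cdk4 in Fl/+ 4-OHT 19 was 631 CPM, against 601 to 604 CPM.

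For 2 members, the 4-OHT change in the Fl/+ cultures had opposite signs in the mice labelled female (24 and 26) and those labelled male (19, 35 and 36). Cdkn2a changed on the log2 scale by 0.34 to 0.37 in the 2 females and by -0.92 to -0.18 in the 3 males, a difference of means of 0.81 (female minus male). Ccnd3 changed by 0.06 to 0.24 and by -0.17 to -0.09, a difference of 0.27. These opposite signs were noticed mouse by mouse. The 4-OHT library of mouse 36, labelled male, had 74.7 CPM of Xist beside 52.9 CPM of Ddx3y, which limits this grouping. The untreated library of that mouse had 5.89 CPM of Xist. In edgeR's interaction with labelled sex, 0 of the 10 members passed in each of the 3 comparisons, beside 0 of 14821 genes for 4-OHT, 7.34% of 15036 for Trrap deletion and 0.0798% of 15032 for Fl/Fl 4-OHT against untreated Fl/+. Unadjusted p-values were under 0.05 for 4, 1 and 3 members in the same order, beside 8.72%, 28.2% and 20.3% of all genes, and DESeq2 was not run for it. The smallest adjusted p was 0.0656, for Ccnd1 in the last of these, which includes the library labelled Fl/Fl 39.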

How the results depend on the processing

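The count of members called with Trrap deletion (3) was 2 to 4 in the 19 alternatives, and in Fl/Fl 4-OHT against untreated Fl/+ cultures (3) also 2 to 4. The Cdk4 and Cdkn1b calls held in each of these. For 4-OHT in Fl/+ cultures, the count of 0 members became 1 with DESeq2 (Cdk4), 1 with sex as a covariate (Ccnd1), 3 with mouse series as a covariate and 3 with the paired replicate block (Ccnd1, Cdkn2b and Cdkn1b in both). It was 0 to 1 when each library was left out. Calls over all genes there were 3170 with mouse series as a covariate and 3809 with the replicate block, against 2044. They were 1271 to 2522 with each library left out, lowest without Fl/+ 4-OHT 19 (1271) and 35 (1311). No paired analysis was possible for the Fl/Fl comparisons because those cultures share no mouse with the others.

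Signs turned only among uncalled 4-OHT values of 3 members. Ccnd3 was 0.041 with library size alone and 0.0019 with 10 counts in every library, and between -0.04 and 0.015 with each library left out. Cdk2 lay between -0.081 and 0.20 and Cdkn2a between -0.25 and 0.017 with each library left out. The cause was not tested. Other pseudocounts left the counts of members with an exact permutation p under 0.05 as they were (4, 3 and 4 of 10), beside 40.5%, 27.7% and 40.1% of all genes tested with the pseudocount of 0.5. Cdk6, with 58 to 391 counts per library, is the member whose precision depth limits most. The sex-linked counts of Fl/Fl 39 and of Fl/+ 36 with and without 4-OHT weaken every use of sex as a covariate. As 1 series of mice holds the 2 Fl/Fl cultures labelled female, sex and series cannot be told apart there.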
